A study of Mus musculus with 2 samples.

Results

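Natural killer (NK) cells in mouse thymus were examined at single-cell resolution as the cells that carried Ncr1 RNA and no RNA of the CD3 chains. A member cell had at least 1 UMI (unique molecular identifier, 1 counted RNA molecule) of Ncr1, no UMI of Cd3d, Cd3e or Cd3g, and no UMI of the B-cell gene Cd79a. It also had at least 500 detected genes and at most 10% of its UMIs on mitochondrial genes. The rule found 104 members among 7395 kept cells of the control library and 51 among 5903 of the cKO library, 155 of 13298 in all. Because the members were chosen by their measured UMIs of Ncr1, the CD3 genes and Cd79a, the levels of the rule genes describe the selection and are not findings.

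NK cells are innate lymphocytes that kill stressed or infected cells without a rearranged antigen receptor. They read their targets through activating receptors such as NKp46, the product of Ncr1, and through inhibitory receptors of the Ly49 and NKG2 families, and they kill by releasing perforin and granzymes. Most circulating NK cells depend on the transcription factors Eomes and T-bet. A distinct thymic NK population is known for the interleukin-7 receptor, GATA-3 and expression of genes of the T-cell receptor gamma and delta loci, and it shares features with the tissue-resident group 1 innate lymphoid cells (ILC1).

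Both libraries were made from YFP+ cells isolated from thymus. In the control mice (Tbx21Cre Rosa26-YFP+) a Cre recombinase driven by Tbx21, the gene of T-bet, switches on a yellow fluorescent reporter in cells that express or have expressed T-bet, NK cells included. The cKO mice (Tbx21Cre Ets1F/F Rosa26-YFP+) carry the same Cre and reporter and, in addition, floxed Ets1, the gene of an ETS-family transcription factor, so deletion is limited to cells that have made the Cre. Each genotype gave 1 library from the pooled thymi of 2 mice, with no map from cells to mice. The genotypes therefore have no replicates, and no test or p-value is given. No source used here gives the ages, sexes or strain background of the mice. The samples are titled for thymic iNKT1 cells, T-bet+ invariant natural killer T cells, and the NK members are therefore a minority that entered with the same YFP gate.

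Levels are UMIs summed over the cells of a class and divided by all their UMIs, as CPM (counts scaled to a common total of UMIs), with exact Poisson 95% intervals. Shares have exact Clopper-Pearson 95% intervals, and every interval covers counting error only. The libraries held 10102 barcodes (control) and 11206 (cKO), and the kept cells had median depths of 2666 and 5533 UMIs. The mitochondrial filter alone was failed by 6.76% of control and 28.6% of cKO barcodes. The libraries shared 29 barcodes, 0 of them among members. A further 32 control and 11 cKO barcodes met the gene rule but failed a cell filter.

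NK members made up 1.41% (1.15 to 1.70) of kept control cells and 0.864% (0.644 to 1.13) of kept cKO cells. The cKO denominator held 1944 kept cells (32.9%) without a UMI of Ncr1, a CD3 gene or Cd79a, against 93 (1.26%) in control. Without those cells the shares were 1.42% (1.17 to 1.72) and 1.29% (0.961 to 1.69), and the intervals overlapped. The next count took only members with a UMI of Tyrobp, the adaptor gene checked below. Their shares of all kept cells were 1.37% (1.11 to 1.66) and 0.627% (0.442 to 0.863), without overlap. Among all kept cells of at least 1500 UMIs the shares of all members were 1.63% (1.31 to 2.02) and 0.825% (0.584 to 1.13). From 3000 UMIs they were 2.23% (1.76 to 2.77) and 0.917% (0.639 to 1.27), and neither pair overlapped. When the rule was applied after thinning every cell to 1500 UMIs, the shares were 1.42% (1.12 to 1.78, 74 of 5201) and 0.934% (0.676 to 1.26, 43 of 4606), with overlapping intervals. The order of the shares was the same in each of these counts, but whether the intervals separated depended on which cells were counted. Thinning also hides single CD3 UMIs, so 77.0% of those control cells and 55.8% of those cKO cells were members at full depth. Member cells were deeper in the cKO library, at a median of 8583 UMIs (825 to 18522) against 5067 (796 to 15347) in control. Median mitochondrial shares were 3.21% in control members and 2.58% in cKO members.

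The label NK was checked against the marker genes. Tyrobp, which encodes the signalling adaptor DAP12 and took no part in the rule, was found in 101 of 104 control members and in 37 of 51 cKO members. Its summed level was 2809 CPM (2670 to 2954) in control members and 2650 CPM (2494 to 2814) in cKO members, against 78.2 and 101.7 CPM in T cells of the same libraries. Comparison T cells were CD3+ Tbx21+ cells, with at least 1 UMI of a CD3 gene, at least 1 of Tbx21 and none of Cd79a, 1803 in control and 1704 in cKO. Fcer1g, another signalling adaptor, Klrd1 (CD94), Prf1 (perforin) and Eomes were all detected in members of both libraries, and the T-cell gene Trac stood at 31.5 CPM in control members and 29.8 CPM in cKO members against 840 and 903 CPM in T cells. By Tyrobp alone the label NK fitted nearly all control members, and in cKO it fitted the members with Tyrobp only. No UMI of Eomes was found in 51 of 104 control and 24 of 51 cKO members, and none of Prf1 in 31 and 18. Members with Tyrobp and Il7r, the interleukin-7 receptor gene, numbered 15 in control, of which 3 had Eomes and 4 Prf1. In cKO they numbered 6, of which 2 and 4 did. The label NK is less sure for these members.

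The 14 cKO members without a Tyrobp UMI stood apart from the rest. Of these, 11 had under 1500 UMIs, 13 were members on a single Ncr1 UMI, and 6 held at least 10 UMIs of 7 gut epithelium genes (Zg16, Fabp6, Defa24, Defa30, Agr2, Mptx1 and Itln1). Only 3 control members lacked Tyrobp, 2 of them under 1500 UMIs and 0 with such gut counts. Another part of the 14 cKO members carried Il7r, since only 6 of the 13 cKO members with Il7r had Tyrobp. These Il7r+ cells without Tyrobp held at most 1 gut-list UMI each. Each of them had an Ets1 UMI, and most had Ltb or Rora. What these cells are was not tested. The summed gut list stood at 1205 CPM in cKO NK members, 292 CPM in cKO T cells and 1590 CPM in cKO B cells, and at 0, 0.875 and 0 CPM in the control classes. A UMI of the list was held by 24 cKO members and by 0 control members. The genotype comparisons of summed levels and of shares at 1500 UMIs below were therefore also made in members with Tyrobp. Medians over members, and shares at other depths, count all members. The part of free gut RNA in the other results was not tested.

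At the edge of the rule, 26 control and 17 cKO members had exactly 1 Ncr1 UMI, and Tyrobp was found in 24 and 4 of them. Among members with 2 or more Ncr1 UMIs, Tyrobp was found in 77 of 78 control cells and 33 of 34 cKO cells. Just outside the rule, 55 control and 21 cKO cells had Ncr1 and exactly 1 CD3 UMI, and 80% and 95.2% of these carried Tyrobp. Of the Tyrobp+ cells among them, the single UMI was of Cd3g in 23 control and 14 cKO cells, of Cd3d in 14 and 4, and of Cd3e in 7 and 2. Cells with Ncr1 and 2 or more CD3 UMIs numbered 196 and 43, and 62.8% and 83.7% of them had Tyrobp. For comparison, Tyrobp was found in 12.6% of control and 6.98% of cKO T cells and in 2.27% and 20.1% of B cells (Cd79a at least 2 UMIs, no CD3 gene, no Ncr1).

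Most other lineages were low in the members, apart from T-cell genes and, in cKO, the gut genes given above. Lists of T-cell genes summed to 1501 CPM in control members and 759 CPM in cKO members, against 5199 and 5029 CPM in T cells, and a list UMI was held by 100 of 104 and 43 of 51 members. B-cell genes summed to 198 and 146 CPM, against 99118 and 33672 CPM in B cells. Genes of myeloid and dendritic cells reached 131 and 156 CPM, iNKT genes 35.2 and 47.1 CPM, genes of the other innate lymphoid groups ILC2 and ILC3 11.1 and 29.8 CPM, and erythroid genes 0 CPM in both. The UMIs of the ILC2 and ILC3 list lay in 5 control and 4 cKO members. Trbc1 and Trbc2, the constant regions of the T-cell receptor beta chain, carried most of the T-cell signal in members, whereas Trac, given above, was found in 16 control and 10 cKO members and stood at 21.5 and 8.28 CPM in B cells.

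**Figure D1:**
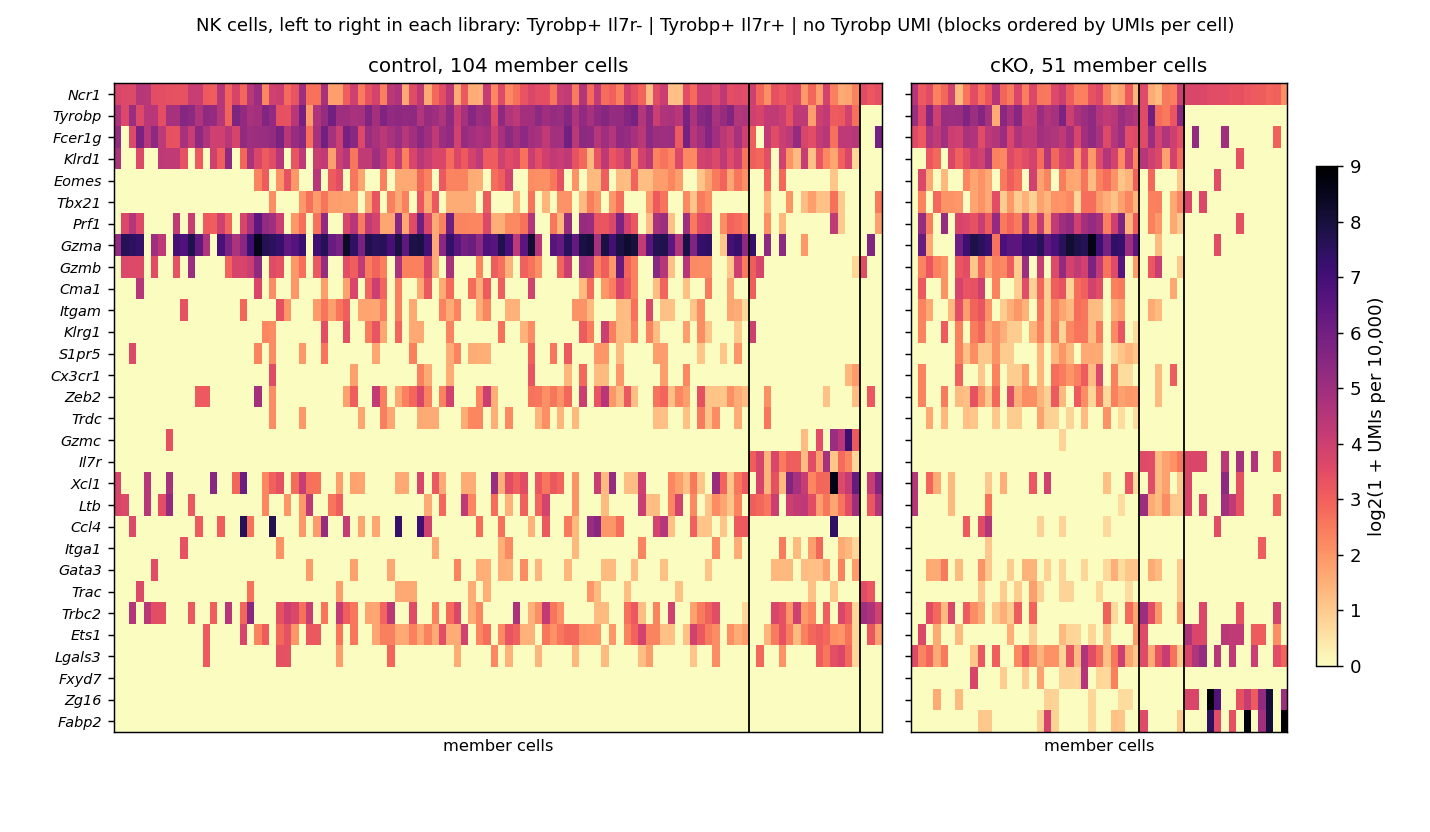
Each column is 1 NK member cell and each row 1 gene, and the colour is log2 of 1 plus UMIs per 10000 UMIs of that cell, in 104 control cells (left) and 51 cKO cells (right). Black lines separate members with Tyrobp and no Il7r, members with both, and members without Tyrobp, and several of the last kind in cKO show Zg16 or Fabp2 and no NK marker beside Ncr1.

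By the genes detected together, the members are described here as 2 kinds, which the plot of single cells shows side by side. These genes are sparse, and some cells cross the split, such as a control member with 1 Il7r and 22 Gzma UMIs. In control, Gzmc (granzyme C) was found in 7 members, and 6 of these 7 had Il7r (interleukin-7 receptor), 1 had Gzma, 1 had Eomes, 2 had Prf1, 0 had Cma1 and 0 had Trdc. Trdc, the constant region of the T-cell receptor delta chain, was found in 25 control members, and of these 20 had Eomes, 23 had Gzma, 21 had Prf1, 10 had Cma1 and 1 had Il7r. The 2 genes named as thymic NK features therefore did not mark the same cells. Cma1 (mast cell chymase 1, a serine protease gene) was found in 33 control members, and 32 of these had Prf1, 33 Gzma, 22 Klrg1 and 17 Itgam.

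Among cKO members, those with Trdc mostly carried cytotoxic genes and those with Gzmc were too few to describe. Trdc was found in 15 cKO members, of which 15 had Prf1, 13 Eomes, 14 Gzma, 11 Cma1 and 0 Il7r. Cma1 was found in 22, of which 22 had Prf1, 19 Klrg1 and 18 Itgam. Gzmc was found in 1 cKO member, with a single UMI, in a cell that also carried Eomes, Gzma, Prf1 and Cma1 and no Il7r, unlike 6 of the 7 control cells with Gzmc. Members with Trdc were deeper than those without, at a median of 5638 against 4745 UMIs in control and 12430 against 4855 in cKO, and the part of depth in these counts was not tested. Control members with Gzmc were also deeper, at a median of 9236 against 4969 UMIs.

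To describe the 2 kinds further, members with Tyrobp were split by Il7r, a split chosen after these values were seen and given as a description. There were 15 Il7r+ and 86 Il7r- cells in control (median 7199 and 4930 UMIs) and 6 and 31 in cKO (7751 and 11555 UMIs). In control Il7r+ cells Gzmc stood at 2302 CPM (2032 to 2598), against 2.38 CPM (0.0603 to 13.3) in Il7r- cells. A single cell held 192 of the 264 Gzmc UMIs of all control members (72.7%), so this level rests largely on 1 cell, and without it Gzmc stood at 702 CPM (548 to 885) in the Il7r+ cells. Xcl1, a chemokine that attracts cross-presenting dendritic cells, stood at 5191 CPM (4781 to 5626) against 546 (477 to 621). Of its 593 UMIs in Il7r+ cells 363 came from 1 cell, and without that cell its level was 2190 CPM (1916 to 2493). Ltb (lymphotoxin beta) stood at 1138 CPM against 250, and Emb (embigin, an adhesion protein) at 797 against 243.

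Other genes with higher levels in control Il7r+ cells are known from tissue-resident and helper-like innate lymphocytes. Tmem176a and Tmem176b, ion channel genes of innate lymphoid and dendritic cells, stood at 306 and 324 CPM against 2.38 CPM each. Tcrg-C4, a constant region of the T-cell receptor gamma locus, stood at 219 CPM (142 to 323) against 7.15 (1.47 to 20.9), and at 102 (51.1 to 183) without the cell that held most of it. The transcription factor gene Gata3 stood at 140 CPM against 45.3, the chemokine receptor gene Cxcr6 at 131 against 47.7, and Itga1 (the residency integrin CD49a) at 140 against 35.7. Rora, another transcription factor gene, stood at 114 CPM against 4.77, but 10 of its 13 UMIs in Il7r+ cells came from 1 cell, and without that cell its level was 28.2 CPM (5.82 to 82.5). The receptor tyrosine kinase gene Kit, at 61.3 against 2.38, rested on 7 UMIs in 4 cells.

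In control Il7r- cells the cytotoxic program was higher. Gzma stood at 12591 CPM (12253 to 12935) against 665 (524 to 833) in Il7r+ cells, Prf1 at 1225 against 184 (17 of its 21 UMIs from 1 cell), and Cma1 at 236 (192 to 287) against 8.75 (0.222 to 48.8). Eomes stood at 310 CPM against 78.8, the maturation factor gene Zeb2 at 355 against 43.8, and the chemokine gene Ccl5 at 16087 against 1961. Itgam (the integrin CD11b) and S1pr5 (a receptor that guides NK cells out of tissue) had 0 UMIs in Il7r+ cells, with an upper bound of 32.3 CPM, against 153 and 97.7 CPM in Il7r- cells. Tbx21 differed less, at 123 CPM (67.0 to 206) against 195 (155 to 243), and Ets1 stood at 411 (302 to 547) and 365 (309 to 427).

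The 6 Il7r+ Tyrobp+ cells of the cKO library repeated part of this. Emb stood at 685 CPM against 87.3 in Il7r- cells, Ltb at 245 against 26.2, Tmem176a at 269 against 2.91, Rora at 245 against 32.0 and Tcrg-C4 at 122 against 23.3. The last 3 rest on 11, 10 and 5 UMIs, of which 7, 7 and 3 came from 1 cell each, and without that cell their levels were 124, 95.4 and 65.1 CPM. Gzma stood at 24.5 CPM against 13698, Prf1 at 171 against 1735, and Klrg1 at 0 (up to 90.2) against 271. Unlike in control, Gzmc was at 0 CPM in these 6 cells, with an upper bound of 90.2 CPM, and Xcl1 at 220 (101 to 418) was not separated from the 163 (123 to 212) of the Il7r- cells. Gata3 was not separated either, at 73.4 CPM (15.1 to 214) against 78.6 (51.8 to 114). Itga1 was at 0 (up to 90.2) against 2.91, and Cxcr6, at 73.4 against 17.5, rested on 3 UMIs. Of the 13 cKO members with Il7r, only 6 had Tyrobp.

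**Figure D2:**
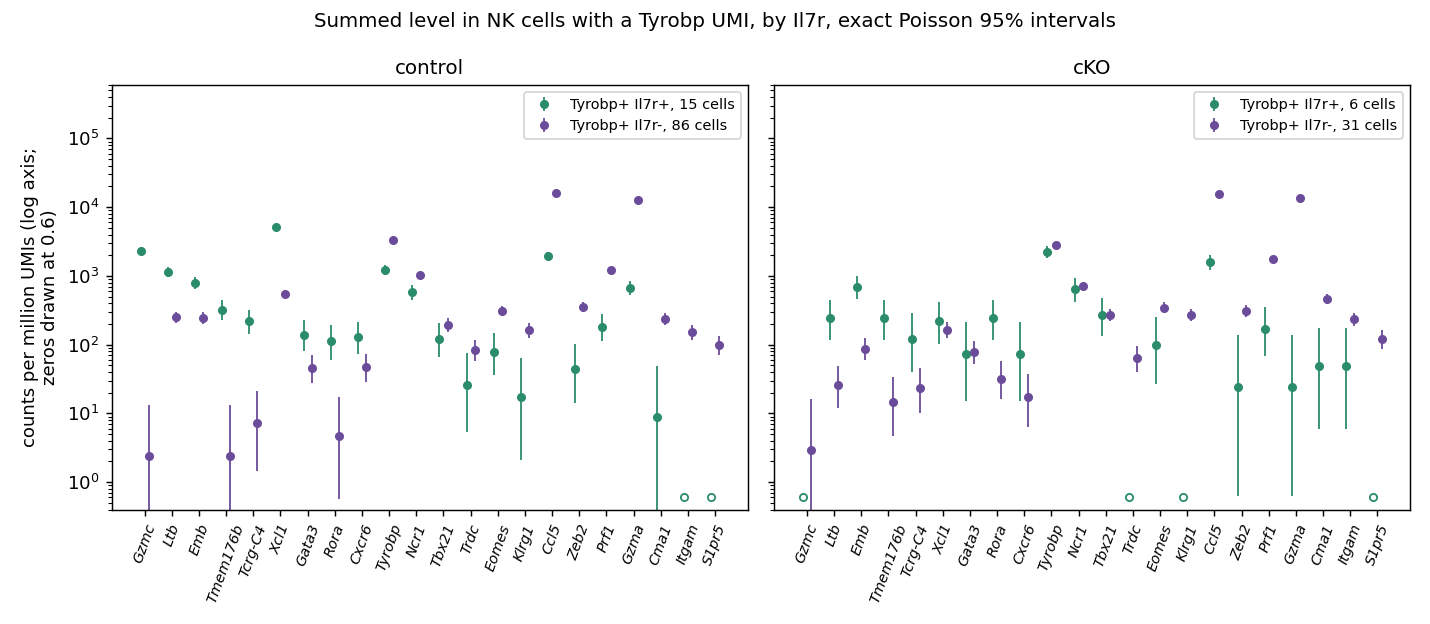
Points are summed levels in CPM on a log axis with exact Poisson 95% intervals, for NK members with a Tyrobp UMI and with (green) or without (purple) an Il7r UMI, in control (left) and cKO (right), and open points are zeros. Gzmc at 2302 CPM in the 15 control Il7r+ cells has no counterpart in the 6 cKO Il7r+ cells, while Emb, Ltb and Tmem176b are higher and Gzma, Prf1 and Cma1 lower in Il7r+ cells of both libraries.

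Thymic and circulating features were then compared between the libraries at 1 depth, in the 85 control and 38 cKO members with at least 1500 UMIs, thinned to that number. Gzmc was found in 4.71% (1.30 to 11.6) of control and 2.63% (0.0666 to 13.8) of cKO members, and Trdc in 5.88% (1.94 to 13.2) and 5.26% (0.644 to 17.7). Without thinning, the Trdc shares were 24.0% and 29.4%. Neither gene separated the libraries by share at this depth. In B cells, which should lack these genes, both were at 0 of 32 in control, which allows a share of up to 9.38%, and at 0 of 163 in cKO, where 1.84% is allowed. Median depths before thinning were 3738.5 and 7801 UMIs for B cells, and the control share of Gzmc is thus within what the few control B cells allow.

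Among the other genes of the thymic NK list, Xcl1 and Ctla2a had intervals that did not overlap, at 1500 UMIs and also at 1000 and 3000 UMIs, with all members counted. Among the members with Tyrobp, 84 in control and 35 in cKO, the Xcl1 intervals overlapped at 1500 UMIs. Xcl1 was found in 45.9% (35.0 to 57.0) of control and 18.4% (7.74 to 34.3) of cKO members, against 0 of 32 and 1.23% of B cells. Ctla2a, a gene named from cytotoxic T lymphocytes, was found in 62.4% (51.2 to 72.6) and 31.6% (17.5 to 48.7), against 15.6% and 3.07% of B cells. The tissue-retention gene Cd69 was found in 28.2% (19.0 to 39.0) and 5.26% (0.644 to 17.7). B cells express Cd69 too, at 40.6% and 31.3%, and without thinning the Cd69 shares of the NK members were 40.4% and 49.0%. At 1000 UMIs the Cd69 shares were 12.4% (6.56 to 20.6) and 13.6% (5.17 to 27.4) and at 3000 UMIs 33.3% (23.1 to 44.9) and 25.7% (12.5 to 43.3), so the separation at 1500 UMIs was not kept. For Ltb (29.4% and 10.5%), Cd7 (41.2% and 23.7%), Emb (24.7% and 15.8%) and Il7r (9.41% and 5.26%) the intervals overlapped.

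Of the circulating features, Cx3cr1 (the fractalkine receptor of mature NK cells) had intervals that did not overlap, 8.24% (3.38 to 16.2) in control and 31.6% (17.5 to 48.7) in cKO members. Its intervals overlapped at the other depths, at 1.03% (0.0261 to 5.61) and 6.82% (1.43 to 18.7) with 1000 UMIs and 10.3% (4.53 to 19.2) and 34.3% (19.1 to 52.2) with 3000 UMIs, with the higher share in cKO each time. S1pr1, a receptor for exit into blood, was found in 3.53% (0.734 to 9.97) and 18.4% (7.74 to 34.3), and B cells, which also express it, in 0 of 32 and 18.4%. The shares of Itgam (21.2% and 23.7%), Klrg1 (15.3% and 26.3%), S1pr5 (9.41% and 15.8%), Cma1 (24.7% and 26.3%) and Prf1 (48.2% and 63.2%) had overlapping intervals. Gzma was found in 80.0% (69.9 to 87.9) of control and 68.4% (51.3 to 82.5) of cKO members, against 3.12% and 3.07% of B cells. Summed over the lists, a thinned member held a median of 5 thymic-list UMIs in control (0 to 64) and 2 in cKO (0 to 9), and 44 and 33.5 circulating-list UMIs, or 28 and 22 without Gzma. These medians count all 85 and 38 members, of which 84 and 35 had Tyrobp. The cKO members without Tyrobp among them held 1 or 2 circulating-list UMIs each before thinning. At 1500 UMIs most single circulating genes thus had overlapping intervals, and their summed levels are given below.

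**Figure D3:**
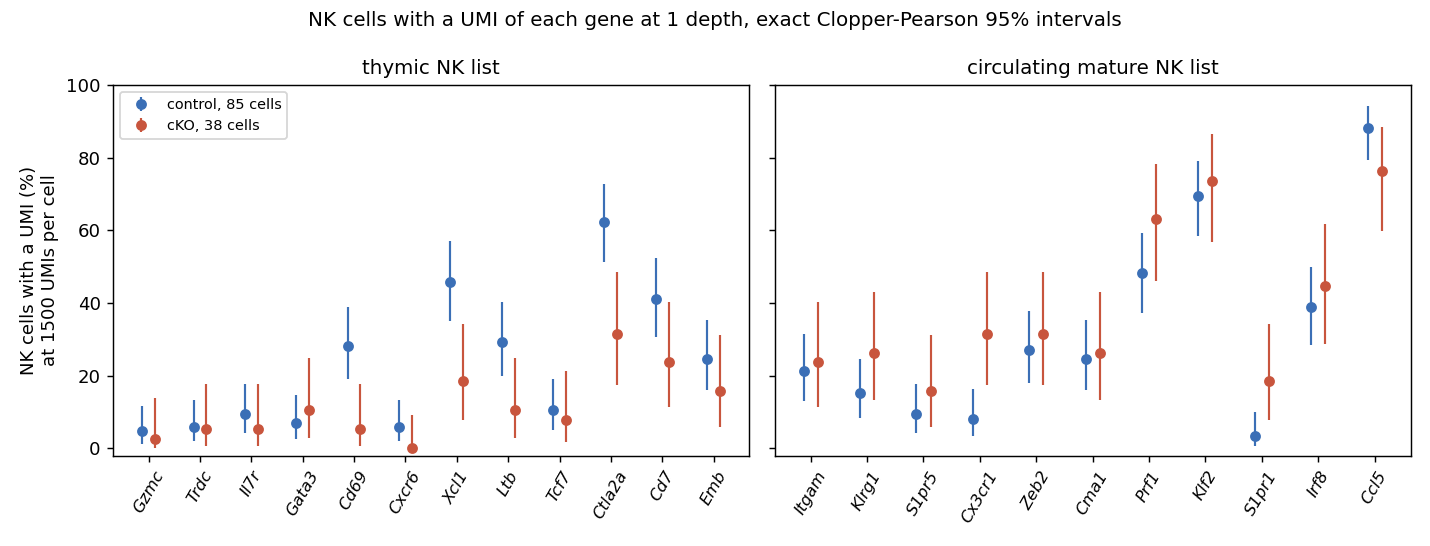
Points are the percentage of NK members with a UMI of each gene after thinning to 1500 UMIs, with exact Clopper-Pearson 95% intervals, for 85 control (blue) and 38 cKO (red) cells. Of these cells 84 and 35 had Tyrobp. Cd69, Xcl1 and Ctla2a have lower shares in cKO and Cx3cr1 a higher one without overlap of the intervals at this depth, while Gzmc and Trdc stay low in both libraries.

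The question of the cKO library is how cells that have expressed T-bet differ when Ets1 is floxed. A gene was called higher or lower when its CPM differed at least 1.5-fold between the libraries, with 20 CPM or more in one of them and an exact interval of the ratio that left out 1. This size rule is not a test. In NK members 441 of 6203 genes that reached 20 CPM were higher in cKO (7.11%) and 579 were lower (9.33%). In members with Tyrobp the counts were 419 (6.71%) and 607 (9.72%) of 6243, and in Tyrobp+ Il7r- members 416 (6.73%) and 567 (9.18%) of 6177. With the member that held most UMIs of each gene left out, 342 of the higher (5.51%) and 524 of the lower calls (8.45%) remained in NK members, and 320 (5.13%) and 553 (8.86%) in members with Tyrobp. Higher genes were 43.2% of all calls, but 55.6% when each cell had equal weight and 60% when members were first thinned to 1500 UMIs. The median log2 ratio over all genes was -0.04 in NK members. Since members with Il7r and members without Tyrobp stood apart, values in Tyrobp+ Il7r- members are given for several lists and genes. The 7.11% higher and 9.33% lower over all genes are the background of each list count in NK members below.

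The targeted gene is reported first. Ets1 (ENSMUSG00000032035, chromosome 9, 32636221 to 32757820, plus strand, GRCm38) was lower in cKO NK members, at 84.3 CPM (58.4 to 118) against 374 (324 to 429) in control, 4.38-fold lower (3.07 to 6.58). It was found in 21 of 51 and 70 of 104 members. Among members with Tyrobp its log2 ratio was -2.75, and in T cells, at 158 against 518 CPM, it was -1.72. The libraries count 3' ends and no source used here names the floxed exons, so this level is no direct measure of deletion. In the 9 control and 4 cKO members that also lack further lineage genes the log2 ratio of Ets1 was 0.36. Of 9 measured ETS-family genes, 0 were higher and 3 lower in NK members, Ets1 among them with Fli1 (139 to 84.3 CPM) and Elf1 (231 to 131 CPM).

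NK identity genes went in both directions, and 11 of the 20 measured did not pass the size rule. Tyrobp (2809 to 2650 CPM), Klrd1 (1027 to 982), Eomes (257 to 305) and Il2rb, the receptor chain for interleukin-15 (711 to 677), were among those 11, as was Fcer1g (2689 to 2016). Tbx21, from the transcription factor list, stood at 181 and 263 CPM and did not pass either. Of the 20 genes 3 passed as higher and 6 as lower, with a median log2 ratio of -0.09, where 7.11% and 9.33% of all genes passed. Those higher were Prf1, Cma1 and Irf8, the gene of a transcription factor that NK cells need for maturation (439 to 774 CPM). Those lower included Gzmc, Klri2, Fcgr3, Klrk1 and Klrb1c. Fcgr3, the Fc receptor CD16 for antibody-dependent killing, went from 79.6 to 7.44 CPM, or 43 against 3 UMIs in 31 and 3 cells, 9.28-fold lower (3.42 to 53.9). Klrb1c, which encodes NK1.1, was 1.55-fold lower (1.25 to 1.94), and at a log2 ratio of -0.55 it missed the rule in members with Tyrobp, whereas in T cells its log2 ratio was -2.74.

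Genes of the thymic NK list were lower in cKO. Of 13 measured, 0 were higher and 9 lower, at a median log2 ratio of -0.83, and in Tyrobp+ Il7r- members 0 were higher and 8 lower of 11 (median -0.92). The lower ones were Gzmc, Xcl1, Ltb, Cd7, Ctla2a, Emb, Il7r, Cxcr6 and Tcf7. The call for Il7r is unsteady, since it had 71 UMIs in 15 of 104 control members, 22 of them in 1 cell, and 30 UMIs in 13 of 51 cKO members, and with each cell weighted equally its log2 ratio was 1.49. Gzmc (chromosome 14, 56231441 to 56234656, minus strand) had 264 UMIs in control members and 1 in cKO members, 489 and 2.48 CPM, a ratio of 132 (35.1 to 7813). In Tyrobp+ Il7r- members Gzmc had 2.38 and 2.91 CPM, so its difference lay in the Il7r+ cells. Trdc (chromosome 14, 54142851 to 54148868, plus strand) stood at 70.3 CPM in 25 cells and 54.5 CPM in 15 cells, and Gata3 at 64.8 and 74.4 CPM, neither past the rule.

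Xcl1 and Ltb were lower in both kinds of member. Xcl1 was 8.83-fold lower (6.97 to 11.5), from 1564 CPM (1460 to 1673) to 176 (138 to 222), and 1 control cell held 363 of its 845 UMIs. In Tyrobp+ Il7r- members Xcl1 stood at 546 and 163 CPM, a log2 ratio of -1.73. Ltb went from 455 to 71.9 CPM, 6.24-fold lower (4.30 to 9.65), and its log2 ratio in Tyrobp+ Il7r- members was -3.18. Cd7 was 2.104-fold lower (1.68 to 2.67), Ctla2a 1.99-fold (1.69 to 2.36) and Emb 1.78-fold (1.37 to 2.35). Of 11 measured ILC1 and tissue-residency genes 1 was higher and 5 lower (median -0.91). Itga1 went from 31 to 2 UMIs, 9.41-fold lower (2.94 to 99.8), Tnfsf10 (the death ligand TRAIL) from 55.5 to 14.9 CPM, and Rgs1, which dampens chemokine receptor signalling, from 748 to 169 CPM. Rora was the exception, at 29.6 and 74.4 CPM, and did not pass the rule in members with Tyrobp.

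Over all thinned members, the median of circulating-list UMIs given above was lower in cKO, at 33.5 against 44. Of these members 35 of 38 in cKO and 84 of 85 in control had Tyrobp, and leaving out the rest keeps this order. In summed levels, where deeper cells weigh more, circulating mature NK genes were instead higher or unseparated in cKO members. Of 18 measured, 9 were higher and 0 lower (median 0.51), and in Tyrobp+ Il7r- members 7 were higher and 0 lower (median 0.39). Prf1, Cma1, Irf8, Itgam, Klrg1, Cx3cr1, S1pr1, Serpinb9b and Ahnak were the higher ones. S1pr1 went from 16.7 to 109 CPM, 6.28-fold higher (3.16 to 15.3), in 7 of 104 and 21 of 51 members. Cx3cr1 was 3.54-fold higher (2.37 to 5.50), from 61.1 to 218 CPM, Klrg1 1.78-fold (1.29 to 2.46) and Itgam 1.71-fold (1.22 to 2.42). Gzma (9929 to 11670 CPM), Ccl5 (12990 to 13333), Zeb2 (287 to 268), Klf2, Spn and S1pr5 (75.9 to 102) did not pass the rule. The median member had 87.7 Gzma UMIs per 10000 in control and 10.4 in cKO, where 19 of 104 and 22 of 51 members had none. These values include the 14 cKO members without Tyrobp. In Tyrobp+ Il7r- members Gzma was found in 80 of 86 control and 27 of 31 cKO cells, at 12591 and 13698 CPM. In Tyrobp+ Il7r+ members it was found in 4 of 15 and 1 of 6. Prf1 and Ahnak did not pass the rule in Tyrobp+ Il7r- members, and with each cell weighted equally the log2 ratio of Prf1 was -0.04.

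Among the granule and killing genes, 7 of 20 measured were higher and 4 lower (median 0.48). Gzmb (granzyme B) went from 664 to 1366 CPM, 2.06-fold higher (1.80 to 2.36), and Cma1 (chromosome 14, 55941451 to 55944675, minus strand) from 185 (151 to 225) to 399 (340 to 466), 2.15-fold higher (1.67 to 2.80). Cma1 was found in 33 of 104 and 22 of 51 members. Prf1 (chromosome 10, 61297833 to 61304680, plus strand) went from 992 (910 to 1080) to 1497 (1380 to 1622), 1.51-fold higher (1.34 to 1.70). Ctsc (cathepsin C, which activates granzymes) was 2.097-fold higher (1.45 to 3.08). Ctsw, a cathepsin of cytotoxic cells, was 2.86-fold lower (2.36 to 3.50), from 938 to 327 CPM, in 96 and 35 members. Part of the Cma1 3' end is shared with a predicted gene, Gm48934 (15.9% of its 50-base windows), so its counts may be incomplete.

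The 300 bases from 250 before to 50 after the start site are shown for the receptor gene that defined the cells and for a granule gene of each direction, Prf1 higher and Gzmc lower in cKO, because the series deletes an ETS factor. Sequences are RefSeq's for GRCm38.p6, written on the strand of the gene, and capitals mark CAGGAAG or its reverse complement.

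Ncr1, chr7:4337465-4337764, plus strand: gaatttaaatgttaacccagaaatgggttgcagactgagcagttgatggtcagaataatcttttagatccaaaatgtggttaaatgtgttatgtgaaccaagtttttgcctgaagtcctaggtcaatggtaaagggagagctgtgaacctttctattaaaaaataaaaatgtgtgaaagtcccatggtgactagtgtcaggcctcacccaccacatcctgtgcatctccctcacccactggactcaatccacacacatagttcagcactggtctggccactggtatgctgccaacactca

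Prf1, chr10:61297586-61297885, plus strand: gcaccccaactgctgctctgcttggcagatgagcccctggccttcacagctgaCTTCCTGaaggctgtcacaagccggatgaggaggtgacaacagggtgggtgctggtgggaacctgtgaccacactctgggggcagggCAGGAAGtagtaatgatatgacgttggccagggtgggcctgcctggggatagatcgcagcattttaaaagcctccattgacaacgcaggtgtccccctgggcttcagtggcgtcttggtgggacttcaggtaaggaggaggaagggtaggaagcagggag

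Gzmc, chr14:56234608-56234907, minus strand: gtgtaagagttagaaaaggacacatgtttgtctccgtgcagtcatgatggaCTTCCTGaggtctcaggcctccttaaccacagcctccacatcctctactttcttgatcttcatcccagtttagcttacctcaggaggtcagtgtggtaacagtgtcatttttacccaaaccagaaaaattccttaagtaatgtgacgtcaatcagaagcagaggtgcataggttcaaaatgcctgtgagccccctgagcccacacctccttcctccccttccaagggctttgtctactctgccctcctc

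CAGGAAG and CCGGAAG, motifs of ETS factors that share their GGAAG end and cannot match the same bases, were searched on both strands. CAGGAAG was found on each strand of the Prf1 window, on the opposite strand of the Gzmc window, and not in the Ncr1, Cma1 or Gzmb windows. CAGGAAG is in 13.3% and either motif in 20.9% of the 32851 windows of this length that RefSeq gives. Among tested genes with such a window, 15.7% of 4966 held CAGGAAG, as did 13.9% of the 346 higher and 20.4% of the 465 lower in cKO NK members. CCGGAAG was held by 25.8%, 21.4% and 14.6% of the same sets. A match is a description of letters and not evidence of binding.

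Target-reading receptors differed gene by gene. Of 7 measured Ly49 genes 2 were higher and 1 lower (median -0.13), where 7.11% and 9.33% of all genes passed. In Tyrobp+ Il7r- members 2 of 8 were higher and 3 lower (median -0.40). Reads of this family are uncertain where its members share sequence. Klra8, which encodes the activating receptor Ly49H, went from 374 to 49.6 CPM and from 42 to 3 cells, 7.37-fold lower (4.75 to 12.6). Klra1 (Ly49A, inhibitory) was 2.34-fold higher (1.76 to 3.15), from 141 to 330 CPM, and Klra5 4.64-fold higher (2.80 to 8.33), from 35.2 CPM in 5 cells to 166 CPM in 9 cells. Of the 3' end of Klra8, 15.7% of 50-base windows occur in Klra9, of Klra1 7.80% in Klra4, and of Klra5 0%. Which strain the mice carried at this locus is not given in the sources used here.

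Of 13 measured NKR-P1 and NKG2 receptor genes, 3 were higher and 5 lower (median -0.36), where 7.11% and 9.33% of all genes passed. Klri2, which encodes a lectin-like receptor chain that pairs with the product of Klre1 and lies on chromosome 6 (129729041 to 129740484, minus strand), went from 118 to 9.92 CPM and from 32 to 4 cells, 10.7-fold lower (4.44 to 45.2). Klrk1 (the activating receptor NKG2D) was 1.88-fold lower (1.65 to 2.15), from 1482 to 786 CPM. Klrb1f, an activating receptor of the NKR-P1 family, went from 157 to 66.9 CPM. Clec2i, a ligand gene of the same complex, had 40 UMIs in 23 control cells and 1 UMI in cKO, a ratio of 20.2 (5.06 to 1208). Klrg1 and Klrb1a were higher, and Klrb1 was higher on few cells (2 and 3).

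Adaptors and signalling genes were lower more often than higher, with 1 of 15 measured higher and 6 lower (median -0.42). Over all genes 7.11% were higher and 9.33% lower. Hcst encodes DAP10, the adaptor of NKG2D, and went from 729 to 295 CPM, 2.46-fold lower (2.01 to 3.06). Zap70, a kinase that signals from ITAM adaptors, was 2.08-fold lower (1.21 to 3.85), and Cd247, the CD3 zeta chain, 1.79-fold lower (1.13 to 2.98). Sh2d1b1 (the SLAM adaptor EAT-2) and Cd244a (the SLAM receptor 2B4) were also lower. Cd226 (DNAM-1) was higher, from 83.3 to 144 CPM. Tyrobp and Fcer1g, the adaptors given above, were not past the rule.

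Cytokine and chemokine genes were lower in cKO members. Of 10 measured, 1 was higher and 6 lower (median -1.40), and in Tyrobp+ Il7r- members 0 were higher and 4 lower of 8. Ccl4, a chemokine that attracts T cells and macrophages, went from 1023 CPM (940 to 1112) in 36 cells to 102 (72.9 to 138) in 7 cells, 9.96-fold lower (7.33 to 14.2). Ccl3 was 3.82-fold lower (2.74 to 5.56), from 383 to 99.2 CPM. Ccl5 and Ifng (161 CPM in each library) were not separated. Cxcl10 had 46 UMIs in control and 45 of them came from 1 cell, so its difference describes that cell. Csf2, a growth factor for myeloid cells, was the higher gene, did not pass in members with Tyrobp, and at a log2 ratio of -0.65 turned its sign when the rule was applied after thinning.

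Among cytokine receptors and their regulators 2 of 18 were higher and 4 lower (median -0.66), where 7.11% and 9.33% of all genes passed. Il12rb2, a chain of the interleukin-12 receptor, was higher (48.1 to 89.3 CPM), as was the feedback gene Socs2 (11.1 to 39.7 CPM), and Il10rb, Socs1, Il7r and Ifnar2 were lower. Of 32 measured NK transcription factors, 3 were higher and 8 lower (median -0.31). Id2, which innate lymphocytes need for their development, went from 966 to 481 CPM, 2.01-fold lower (1.70 to 2.38), and Nfil3, an early NK factor, from 21 to 3 UMIs, 4.59-fold lower (1.56 to 27.4). Stat4, Klf6 and Tcf7 were lower too, and Irf8 was 1.76-fold higher (1.48 to 2.097). Id2 was detected in 91 of 104 and 37 of 51 members.

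Adhesion and migration genes went in both directions, with 4 of 25 higher and 8 lower (median -0.17), where 7.11% and 9.33% of all genes passed. The tissue-homing receptors Ccr2 (422 to 146 CPM, 2.87-fold lower, 2.16 to 3.91), Cxcr3 (85.1 to 32.2) and Cxcr6 (66.6 to 29.8) were lower, as were Cd44 and Gpr183. Higher were S1pr1, Cx3cr1, Itgam and Itgad, an integrin that pairs with beta2, with 1 UMI in control and 31 in 14 cKO members, a ratio of 28.1 (6.92 to 1693). Of the 8 measured T-cell genes 0 were higher and 6 lower, with Trbc1 at 476 and 231 CPM, Trbc2 at 446 and 233, and Lat, the linker for activation of T cells, at 87.0 and 17.4.

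The genes with the most extreme ratios were named by rule among those reaching 50 CPM. In the lower direction these were Gzmc, Pglyrp2, Cxcl10, Clec2i, Cd74, Klri2, Ccl4, Itga1, Fcgr3, Xcl1, Serpina3g and Rasgrp2. Pglyrp2, a peptidoglycan-degrading amidase gene, had 36 UMIs in 27 control members and 0 in cKO, at least 8.96-fold lower with 3 counts as the floor of the cKO members together. Rasgrp2, which activates Rap1 and integrins, was 7.71-fold lower (3.13 to 32.8), and Serpina3g, a serine protease inhibitor of a gene family with near copies, 8.76-fold lower (4.68 to 20.7). Of 93 Cd74 UMIs in control, 78 came from 1 cell. Gzmc, Cxcl10, Cd74 and, from the list members, S100a4, Tmem176a, Isg15 and Bst2 did not pass the rule in Tyrobp+ Il7r- members.

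In the higher direction 10 of the 12 genes are expressed by gut epithelium and not by NK cells, namely Agr2, Apoa1, Defa24, Fabp2, Fabp6, Guca2b, Lgals4, Spink4, Tff3 and Zg16. All 10 had 0 UMIs in control members, and Fabp2, a fatty acid binding protein of enterocytes, stood at 1455 CPM in cKO members, 70.2 CPM in those with Tyrobp, and 1090 CPM in cKO B cells. Of the 7 gut-list genes 6 were measured and 6 were higher. The remaining 2 were Fxyd7 and Fxyd1, small regulators of the sodium pump. Fxyd7 had 0 UMIs in control and 59 UMIs in 11 cKO members, all with Tyrobp, at 146 CPM (at least 26.3-fold higher), against 1152 CPM in cKO T cells. Fxyd1 was at least 17.9-fold higher, at 99.2 CPM in 8 members against 444 CPM in cKO T cells. Whether Fxyd RNA in NK members came from the members or from T-cell RNA free in solution was not tested.

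Beside those, several genes of other kinds were higher in cKO members, and they were picked with their values in view. Emp1, an epithelial membrane protein gene, had 2 UMIs in control and 39 in 19 cKO members, a ratio of 21.2 (6.76 to 223), and at 96.7 CPM stood close to the 103 CPM of cKO T cells. Anxa8, an annexin, had 0 and 25 UMIs, at 62.0 CPM in NK members against 1.55 CPM in cKO T cells, and was at least 11.2-fold higher. Insl6, an insulin-like peptide gene, had 3 and 35 UMIs (ratio 13.6, 4.93 to 79.4), and Top1mt, a mitochondrial topoisomerase, 5 and 57 (14.0-fold, 6.18 to 48.8), against 24.9 and 10.8 CPM in cKO T cells for NK levels of 86.8 and 141 CPM. Stmn1, which regulates microtubules, went from 31.5 to 240 CPM, 7.46-fold higher (4.54 to 13.7), in 15 of 104 and 26 of 51 members. Of 7 measured cell cycle genes, Stmn1 among them, 3 were higher and 0 lower, with Mki67 at 14.8 and 62.0 CPM. A single cKO member held 9 Mki67 UMIs (36% of those in cKO), and another, without Tyrobp, held 7. In members with Tyrobp 2 of 6 cell cycle genes were higher, and 1 of them also passed without its top cell.

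Immediate early genes, which stimulation switches on within minutes, were lower in cKO members. Of 17 measured 1 was higher and 11 lower (median -0.90), with Fos from 781 to 283 CPM (2.75-fold lower, 2.24 to 3.43), Jun from 938 to 280 (3.34-fold, 2.73 to 4.14) and Dusp1 from 407 to 176. Egr1 was the higher one, from 49.97 to 126 CPM. In T cells 0 of 17 were higher and 10 lower (median -0.83), so this difference was not confined to NK members. Interferon-stimulated genes had 0 of 7 higher and 4 lower (median -1.39), and in Tyrobp+ Il7r- members 0 of 6 higher and 1 lower. Of the B-cell, myeloid, iNKT and ILC2 or ILC3 lists at most 2 genes each were measured. Zbtb16, the iNKT factor PLZF, was higher (7.40 to 27.3 CPM) and so was the ILC3 cytokine gene Il22 (0 to 10 UMIs in 3 cells, at least 4.47-fold), and neither passed in members with Tyrobp. The B-cell and myeloid genes did not pass.

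NK members were next set beside T cells of the same library, a contrast that the rule itself uses, so values are descriptive. In control 945 of 6146 genes were higher in NK members (15.4%) and 378 lower (6.15%), and in cKO 571 of 6143 were higher (9.30%) and 730 lower (11.9%). The 12 genes with the largest ratio in both libraries were Ncr1, Tyrobp, Cma1, Zfhx3, Mef2c, Cdk14, Napsa, Tnfsf13, Tnfsf12, Adamts14, Olfm1 and Abcg2. Cma1 stood at 185 against 4.46 CPM in control T cells, 41.4-fold higher (29.7 to 58.7), and at 399 against 6.27 in cKO, 63.5-fold (48.8 to 83.4). Tyrobp was 35.9-fold (33.2 to 39.0) and 26.1-fold (24.1 to 28.2) higher. Mef2c and Zfhx3 encode transcription factors, Cdk14 a cyclin-dependent kinase, Napsa an aspartic protease, Olfm1 an olfactomedin and Abcg2 a drug and haem exporter, and their ratios were 19.8 or more in both libraries. The 3' end of Tnfsf13 lies wholly within that of Tnfsfm13, a readthrough transcript, so its counts are uncertain.

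Several circulating features stood further above T cells in control than in cKO, a difference that was not tested. The log2 ratio of NK over T was 5.53 in control and 4.18 in cKO for Itgam, 4.52 and 3.02 for Klrg1, 4.85 and 0.76 for S1pr5, 4.43 and 1.70 for Zeb2, and 4.54 and 2.71 for Gzma. The T-cell levels of these genes were higher in cKO, for example Zeb2 at 13.3 and 82.6 CPM and Gzma at 428 and 1785 CPM in control and cKO T cells, while Zeb2, Gzma and S1pr5 were not past the rule in NK members. The ratios were 3.82 and 4.30 for Prf1 and 3.32 and 3.08 for Eomes, and Irf8, at 3.79 and 4.66, stood further above T cells in cKO. Tbx21, part of the T-cell rule, was at -0.16 and 0.27. Of the thymic NK list, 4 of 15 were higher and 6 lower in control NK members than in T cells, and 1 and 9 of 14 in cKO.

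**Figure D4:**
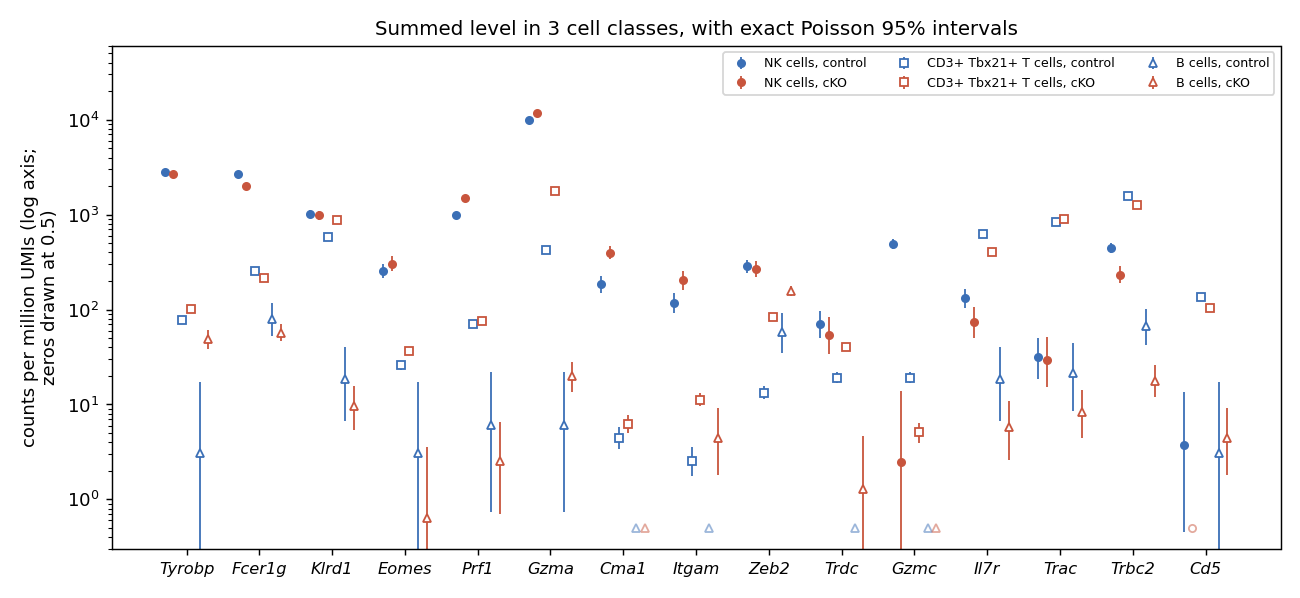
Points are summed levels in CPM on a log axis with exact Poisson 95% intervals for NK members (filled circles), CD3+ Tbx21+ T cells (open squares) and B cells (open triangles) of the control (blue) and cKO (red) libraries, with zeros at the foot. Tyrobp at 2809 and 2650 CPM and Cma1 at 185 and 399 CPM stand above both other classes, and Gzmc at 489 and 2.48 CPM is the gene of those shown whose NK level differs most between the libraries.

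The cKO difference in NK members was set beside that in T cells, where 790 of 5965 genes were higher (13.2%) and 359 lower (6.02%). In NK members 7.11% of 6203 genes were higher and 9.33% lower. Of 293 genes past the size rule in both classes, 273 had the same direction and 20 opposite directions. Both classes come from the same 2 libraries, and the part of library-wide differences in this count was not tested. The same direction held for Ets1 (log2 -2.13 in NK members, -1.72 in T cells), Rasgrp2 (-2.95 and -2.07), Serpina3g (-3.13 and -3.99), Gzmb (1.04 and 1.40), Lgals1 (1.19 and 2.84), Lgals3 (2.05 and 3.66) and Cx3cr1 (1.82 and 3.11). Lgals1 and Lgals3 encode galectins, and Lgals3 was found in 23 of 104 control and 39 of 51 cKO members. Genes not past the rule in T cells included Irf8 (0.82 and -0.05), Id2 (-1.004 and 0.33), Hcst (-1.30 and -0.41) and Ctsw (-1.52 and -0.21), though a difference between the classes was not tested.

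Lists of genes that separated the genotypes in T-lineage clusters of these same libraries were read in NK members, as no independent evidence. Of 21 measured genes high in cKO T cells, 10 were higher and 1 lower in NK members (median 0.56, against 2.84 in T cells). Of 11 measured genes high in control T cells, 0 were higher and 8 lower (median -1.88, against -2.14). Gmfg, a regulator of actin branching, went from 315 to 84.3 CPM in NK members, and Traf1, an adaptor of tumour necrosis factor receptors, from 128 to 19.8. S100a4 was the gene in the opposite direction, at 461 and 119 CPM in NK members and 214 and 777 CPM in T cells, and in Tyrobp+ Il7r- members its log2 ratio was -0.09. Of its 3' end, 50.7% of 50-base windows are shared with a predicted gene, Gm42674.

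**Figure D5:**
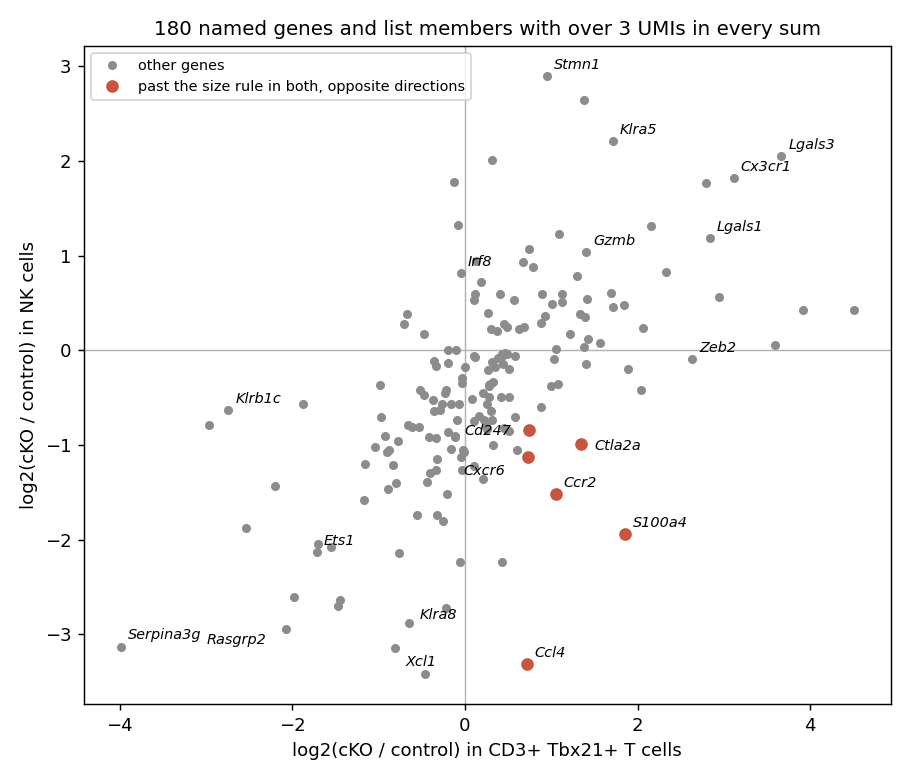
Each point is 1 of 180 named genes and list members, by its log2 ratio of cKO over control in CD3+ Tbx21+ T cells (x axis) and in NK members (y axis). The 6 red genes pass the size rule in opposite directions, all lower in NK members and higher in T cells, with Ccl4 at -3.32 and 0.72 and S100a4 at -1.94 and 1.86.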

How the data were processed

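RNA of YFP+ thymus cells was measured in 1 control and 1 cKO library, 1 sample per genotype. The values deposited by the authors are whole-number UMI counts of 32285 features, made from single-cell 3' libraries per the labels, with Cell Ranger 2.1.1 on mm10 per the submitters' processing notes. The file headers name software version 3.0.0, and this difference was not resolved. No source used here names the annotation. Coordinates come from GENCODE vM21 on GRCm38, which holds 99.6% of the feature identifiers, and promoters from RefSeq.

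Counts were summed over the cells of a class. Ratios had 0.5 UMIs added to both sums and exact conditional binomial 95% intervals. For a gene at 0, the floor was 3 counts. Doublets were not called, since members are few. The CD3 and Cd79a rules remove pairs with T or B cells only where a UMI of those genes was counted. Pairs with other cells were not checked. The rule, members and gene lists were chosen with earlier results of these data known. Named were the rule genes, Tyrobp, Prf1, Gzmc, Cma1, Trdc, Ets1, Tbx21, Eomes and Klrb1c, the top 12 ratios in each direction at 50 CPM or more, the top 12 NK over T ratios, and up to 5 members of each list. Genes that are uncharacterised, sex-linked, mitochondrial, of ribosomal proteins or of receptor segments were left out of the ranking. A few genes are not reported here. Alternatives covered filters, the member rule, scaling, thinning and thresholds. The work used numpy 2.4.6, pandas 2.3.3, matplotlib 3.10.9 and scipy 1.17.1 in Python 3.11.15.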

Additional observations from a re-analysis of the deposited data

Results flagged for a closer look

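The genotype difference ran in opposite directions in NK members and in CD3+ Tbx21+ T cells for 6 of the genes reported here, and the difference between the classes was not tested. Log2 ratios of cKO over control were -3.32 in NK members and 0.72 in T cells for Ccl4 and -1.52 and 1.06 for Ccr2. They were -0.84 and 0.74 for Cd247, -0.99 and 1.35 for Ctla2a, -1.12 and 0.73 for Cxcr6, and -1.94 and 1.86 for S100a4. Without Il7r+ cells and cells lacking Tyrobp, the NK values were -3.01 for Ccl4, -1.48 for Ccr2, -0.90 for Cd247, -1.39 for Ctla2a, -1.37 for Cxcr6 and -0.09 for S100a4. Chemokine receptors make up 2 of the 6 genes.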

How the results depend on the processing

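No paired analysis was possible because each genotype has 1 library. Of 97 named genes past the size rule, 82 kept their sign under all 16 settings run for them and 15 changed it, and the cause was not tested. With the rule applied after thinning, log2 ratios turned to 0.80 for Bst2, 3.43 for Cd74, -0.65 for Csf2, 0.27 for Cxcr4, 0.24 for Egr3, 0.13 for Irf7 and 0.77 for Isg15. With cells weighted equally they were 0.62 for Gpr183, 1.49 for Il7r, 0.086 for Irf7, 1.34 for Isg15, -0.040 for Prf1, 0.11 for Sorl1 and 0.29 for Zap70. With further lineage genes required at 0, which left 9 control and 4 cKO members, Cd7 was at 1.65 and Ets1 at 0.36. Csf2 was at -0.026 with at least 2 Ncr1 UMIs, Isg15 at 0.024 and Rora at -0.42 in thinned sums, and Isg15 at 0.58 without the 10% deepest members. The NK share was 1.05% in control and 0.576% in cKO with at least 2 Ncr1 UMIs, 0.122% and 0.0678% with further lineage genes at 0, 2.23% in control from 3000 UMIs, 1.29% in cKO among kept cells with a UMI of Ncr1, a CD3 gene or Cd79a (a count chosen after seeing the data), and 0.627% in cKO with Tyrobp required. Genes higher and lower in cKO numbered 54 and 62 with further lineage genes at 0, 1936 and 1545 with cells weighted equally, 201 and 134 in thinned sums, and 279 higher at a ratio of 2. The higher genes made 43.2% of the calls, but 55.6% with cells weighted equally and 60% in thinned sums. Without the member holding most UMIs of each gene, 342 of the 441 and 524 of the 579 calls remained. Genes higher in NK than in T cells from 50 CPM numbered 539 in control and 337 in cKO. Thinned shares with further lineage genes at 0 (5 control and 3 cKO cells) were 0% in control and 0% in cKO for Gzmc, 0% and 33.3% for Trdc, 66.7% in cKO for Itgam, 40% and 0% for S1pr5, 20% and 100% for Cx3cr1, 60% in control for Cma1 and 100% in cKO for Prf1. In cKO, Gzmc was also at 0% at 1000 and at 3000 UMIs, where its only UMI in these members was not drawn. At 1000 UMIs Cx3cr1 was at 1.03% and 6.82% and Cma1 at 11.3% in control. At 3000 UMIs Trdc was at 14.1% and 20%, Klrg1 at 25.6%, S1pr5 at 21.8% and Prf1 at 65.4% in control, and Cma1 at 45.7% in cKO. Without thinning Trdc was at 24.0% and 29.4%, Itgam at 34.6% and 49.0%, Klrg1 at 26.9% and 45.1%, S1pr5 at 22.1% and 37.3%, Prf1 at 70.2% in control and Cma1 at 43.1% in cKO. With 51 cKO members, a gene of few UMIs is set by a handful of cells.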

Other observations

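Members, which lack CD3 RNA, were 104 of the 362 kept Ncr1+ cells in control and 51 of the 120 in cKO. Ncr1+ cells with a CD3 UMI and no Cd79a numbered 251 in control, at a median depth of 2465 UMIs, and 64 in cKO, at 10352.5 UMIs. The cKO library also held 1944 kept cells with no UMI of Ncr1, a CD3 gene or Cd79a, at a median of 1375.5 UMIs, against 93 such cells at 1036 UMIs in control. Tyrobp was found in 5.09% and 28.0% of these, and Trac in 1.59% and 41.9%. Their identity was not examined.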
